A study of Mus musculus with 12 samples.

Results

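*Emr1*, *Lyz2* and *Cd14* are genes of macrophages, and their transcripts were followed in the left ventricle of 12 mice, 1 array per mouse. The deposited files carry probe names and no gene names. Names were therefore obtained by matching the fold and p of each entry of a gene table of the study to values computed from the deposited log2 data, which named 892 probes with 863 symbols. The 3 symbols described here each had 1 named probe, so 3 of 863 named genes are covered. The probes were ASMM10P017398 for *Emr1* (RefSeq now calls this gene *Adgre1*), ASMM10P035596 for *Lyz2* and ASMM10P017753 for *Cd14*. All 3 got their names from a single comparison, as transcripts higher in sham miR-150 cKO than in sham miR-150 fl/fl hearts. That difference is thus what chose them, and it is described here without a test.

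There were 4 groups of 3 C57BL/6J mice: sham miR-150 fl/fl, MI miR-150 fl/fl, sham miR-150 cKO and, as the last, MI miR-150 cKO. The miR-150 cKO mice carried αMHC-Cre, which acts in cardiomyocytes, together with a floxed miR-150 gene, and the miR-150 fl/fl controls carried the floxed gene without Cre. MI was made by tying off the left anterior descending artery for good, sham mice had the operation without the ligation, and hearts were taken after 4 weeks. Each group held 1 male and 2 females. The miR-150 cKO mice were 14 or 15 weeks old and the miR-150 fl/fl mice 13 or 14 weeks, and after MI all 3 miR-150 cKO mice were 15 and all 3 controls 14 weeks old, so age and genotype after MI cannot be told apart. The deletion lies in cardiomyocytes, whereas the RNA came from whole ventricle, where macrophages are a minor population. The level of miR-150 itself was not analysed here.

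Macrophages of the heart come in part from cells seeded before birth and in part from blood monocytes. They clear dying cells and debris after an infarct and remain in the scar and the spared muscle. *Emr1* encodes F4/80, an adhesion G protein-coupled receptor on the macrophage surface and a standard marker of mouse macrophages. *Lyz2* encodes lysozyme M, an enzyme that cuts bacterial cell walls and is made in large amounts by macrophages, monocytes and neutrophils. *Cd14* encodes a surface co-receptor that hands bacterial lipopolysaccharide to Toll-like receptor signalling in monocytes and macrophages. Several transcription factors are known for myeloid genes, among them PU.1 of the ETS family, C/EBP factors and AP-1.

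The promoter of *Lyz2* is shown because this gene had the largest difference of the 3 in the comparison that named them, and those of *Cd300a* and *Fcrls* because these myeloid genes were among the 5 most like *Emr1* over the arrays, as given further on, and their windows hold motifs searched for, a choice made after the matches were seen. The letters are from RefSeq, build GRCm38.p6, for the 250 bases before the annotated start, read 5′ to 3′ on the strand of the gene. Capitals mark the motifs GAGGAA (PU.1), TTGCNNAA (C/EBP), TGANTCA (AP-1) and AGGAAG (an ETS core, added after the *Lyz2* letters had been seen), on either strand, and GAGGAA and AGGAAG can overlap.
*Lyz2*, chr10:117282273-117282522, minus strand: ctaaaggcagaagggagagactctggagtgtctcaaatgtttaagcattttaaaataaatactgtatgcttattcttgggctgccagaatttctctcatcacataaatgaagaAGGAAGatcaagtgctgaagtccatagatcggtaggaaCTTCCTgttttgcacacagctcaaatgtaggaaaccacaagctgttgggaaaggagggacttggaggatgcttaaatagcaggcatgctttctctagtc
*Cd300a*, chr11:114889791-114890040, plus strand: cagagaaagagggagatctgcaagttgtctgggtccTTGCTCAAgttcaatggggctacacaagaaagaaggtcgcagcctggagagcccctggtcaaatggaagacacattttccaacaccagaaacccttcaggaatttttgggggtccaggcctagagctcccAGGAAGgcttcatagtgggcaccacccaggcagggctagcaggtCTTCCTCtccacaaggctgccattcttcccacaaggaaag
*Fcrls*, chr3:87263525-87263774, minus strand: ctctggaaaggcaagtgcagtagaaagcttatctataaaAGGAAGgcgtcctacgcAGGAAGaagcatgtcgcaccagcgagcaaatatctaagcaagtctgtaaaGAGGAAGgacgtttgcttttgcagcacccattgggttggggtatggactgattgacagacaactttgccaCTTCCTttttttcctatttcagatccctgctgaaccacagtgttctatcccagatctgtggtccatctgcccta

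The *Lyz2* window held AGGAAG 2 times and none of the other 3 motifs. The *Cd300a* window held GAGGAA 1 time, TTGCNNAA 1 time and AGGAAG 2 times, and the *Fcrls* window held GAGGAA 1 time and AGGAAG 4 times. Over 32851 RefSeq windows of the same length, 23.3% held GAGGAA, 9.56% TTGCNNAA, 6.75% TGANTCA and 29.5% AGGAAG. Of the 20 named myeloid genes described below, 15 had a promoter sequence, with 16 windows between them. GAGGAA was in 6 of the 16 windows, TTGCNNAA in 5, TGANTCA in 1 and AGGAAG in 10. AGGAAG was added after the *Lyz2* letters had been seen, and that window is among its 10, so nothing is read from that count. A match of letters is a description of the window and no evidence that a factor binds there.

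Values are log2 spot signals with the 75th percentile of the same array subtracted, so that 0 stands for the brightness at that percentile. Apart from the summed lists given further on, each probe is compared only with itself, since probes differ in brightness for the same amount of RNA. All 3 probes were well above background on all 12 arrays. The arrays were read in 2 scans. Scan 1 took in MI miR-150 fl/fl replicate 3 with all 3 of the MI miR-150 cKO group, and scan 2 the other 8, so that genotype after MI was nearly the same division as scan. Within scan 2 the 3 sham miR-150 fl/fl arrays and sham miR-150 cKO replicate 1 lay in array row 1, and sham miR-150 cKO replicates 2 and 3 in row 2. The share of probes well above background was 90.3% on sham miR-150 cKO replicate 1 and 74.1% and 76.1% on replicates 2 and 3, against 81.5% to 89.4% on the arrays of the other groups. Fewer macrophages and less of a transcript per macrophage cannot be told apart in RNA of whole ventricle, and the same holds for more.

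*Emr1*, the surface receptor, was lowest in sham miR-150 fl/fl hearts, at 0.98, 1.37 and 1.76 on replicates 1, 2 and 3. In sham miR-150 cKO hearts it read 2.12, 2.16 and 2.09, the tightest group of the 4. After MI the miR-150 fl/fl hearts gave 2.04, 1.67 and 1.79, and the miR-150 cKO hearts 1.57, 2.10 and 2.20. The sham miR-150 cKO arrays were all above the sham miR-150 fl/fl arrays, whereas both MI groups overlapped with each other. The order of the means was sham miR-150 cKO at 2.12 ± 0.04 (SD, n = 3), MI miR-150 cKO at 1.96 ± 0.34, MI miR-150 fl/fl at 1.84 ± 0.19 and sham miR-150 fl/fl at 1.37 ± 0.39, and each neighbouring pair in this order overlapped.

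*Lyz2*, the lysozyme, had the widest range of the 3 over the arrays. It read 3.35, 3.85 and 4.37 on the sham miR-150 fl/fl arrays and 4.54, 5.06 and 4.73 on the sham miR-150 cKO arrays, again without overlap. The MI miR-150 fl/fl hearts gave 4.72, 4.60 and 4.41, all above the 3 sham hearts of the same genotype. The MI miR-150 cKO hearts gave 4.08, 4.61 and 4.70, which overlapped with sham miR-150 cKO and with MI miR-150 fl/fl. The means stood in the order sham miR-150 cKO (4.78 ± 0.26, SD, n = 3), MI miR-150 fl/fl (4.58 ± 0.15), MI miR-150 cKO (4.46 ± 0.34) and sham miR-150 fl/fl (3.86 ± 0.51), with overlap between all neighbours. *Lyz1*, a close relative of *Lyz2*, is similar in sequence, and whether the probe tells the transcripts apart is unknown because the probe sequence was not used here.

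*Cd14*, the lipopolysaccharide co-receptor, had the smallest sham difference of the 3. It read 1.51, 1.84 and 2.10 in sham miR-150 fl/fl and 2.12, 2.75 and 2.60 in sham miR-150 cKO hearts, so the groups were separated by the gap between 2.10 and 2.12. After MI it read 2.35, 1.93 and 1.95 in miR-150 fl/fl and 1.76, 2.50 and 2.66 in miR-150 cKO hearts. MI miR-150 cKO thus held both the lowest and the highest MI array. By mean, sham miR-150 cKO came first with 2.49 ± 0.33 (SD, n = 3), then MI miR-150 cKO with 2.31 ± 0.48, the MI miR-150 fl/fl hearts with 2.08 ± 0.23 and sham miR-150 fl/fl with 1.82 ± 0.29, and all neighbours overlapped.

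**Figure D1:**
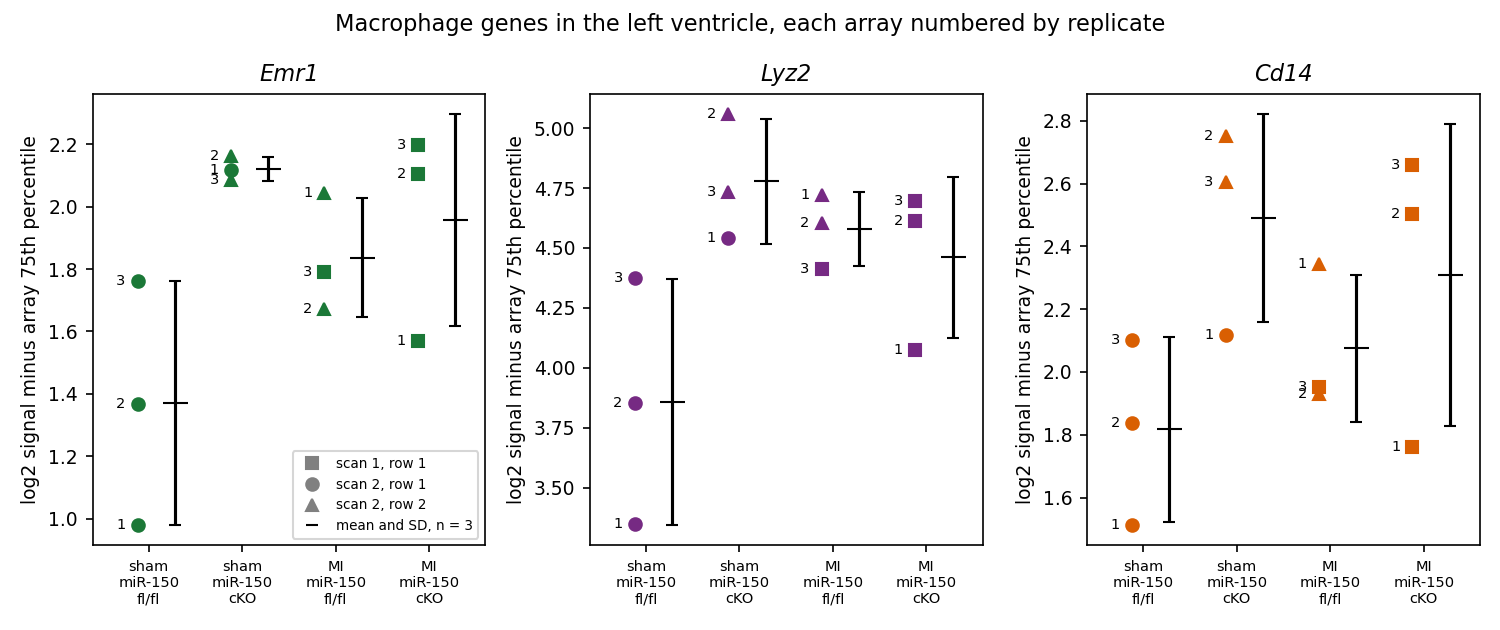
Log2 signal relative to the 75th percentile of the array (vertical axis, a separate scale per gene) of *Emr1*, *Lyz2* and *Cd14* in the 4 groups, with 1 point per array numbered by replicate, symbols for scan and array row, and the mean with SD beside the points (n = 3). The sham miR-150 fl/fl arrays lie below the sham miR-150 cKO arrays for all 3 genes, and the MI groups overlap.

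The comparison that did not choose the genes is MI miR-150 cKO against MI miR-150 fl/fl, which asks whether the loss of miR-150 in cardiomyocytes goes with a different level of macrophage transcripts 4 weeks after an infarct. None of the 3 passed the test, which was limma fitted over all 54232 tested probes with Benjamini-Hochberg adjustment. *Emr1* was higher by 0.12 on the log2 scale (1.09-fold, SE 0.21, 95% interval -0.34 to 0.59), with an adjusted p of 0.81 and an exact two-sided permutation p of 0.70. *Lyz2* differed by -0.12 (0.92-fold, SE 0.25, interval -0.68 to 0.45), with an adjusted p of 0.85 and an exact permutation p of 0.70. *Cd14* was higher by 0.23 (1.18-fold, SE 0.26, interval -0.34 to 0.80), with an adjusted p of 0.68 and an exact permutation p of 0.60. With 3 arrays against 3 the smallest exact p is 0.1. The unadjusted limma p values were 0.57, 0.66 and 0.39, so the members called number 0 also without adjustment, and the unpaired 2-tailed test of the study's methods gave no p under 0.05 for them either. Over all tested probes, 9111 of 54232 had an unadjusted limma p under 0.05, and 9118 of 54229 had one by the unpaired test. The interval of each gene reaches past a fold of 1.5 in 1 direction, for *Emr1* only just, so a difference of that size could have been missed.

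Over all tested probes, 4.77% were past a fold of 1.5 with an unadjusted p under 0.05 in this comparison, 3.45% higher and 1.31% lower in MI miR-150 cKO, and 0.00184% were called at an adjusted p of 0.05. The groups did not overlap for 28.4% of all probes, and they overlapped for all 3 members. Scan 1 held MI miR-150 fl/fl replicate 3 beside the 3 MI miR-150 cKO arrays. Within that scan *Emr1* read 1.79 on the control and 1.57 to 2.20 on the miR-150 cKO arrays, *Lyz2* 4.41 against 4.08 to 4.70, and *Cd14* 1.95 against 1.76 to 2.66. The control lay inside the range of the miR-150 cKO arrays for each gene. The differences within scan 1, where the control is a single array, were 0.17, 0.05 and 0.36. The sign for *Lyz2* thus turned when scan was taken into account, and it also turned without MI miR-150 cKO replicate 1, to 0.08.

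In the sham hearts, the comparison that chose the genes, the log2 difference between miR-150 cKO and miR-150 fl/fl was 0.75 (SE 0.21) for *Emr1*, 0.92 (SE 0.25) for *Lyz2* and 0.67 (SE 0.26) for *Cd14*. As folds these are 1.68, 1.89 and 1.59. In the deposited log2 values, on which the study's limits of a fold of 1.5 and an unadjusted p under 0.05 had been applied, the folds were 1.64, 1.73 and 1.52. *Cd14* was thus the member nearest to the limit, at place 69 of 79 entries ranked by fold, of which the lowest was *Zfp120*, at 1.5004, and transcripts under the limit have a name here only where another comparison named them. *Ctsz*, for example, differed by 0.55 between the sham groups in the fit used here and was named through MI against sham in miR-150 fl/fl. The sham groups did not overlap with miR-150 cKO higher for 5.04% of all probes, and 0.636% were past the limits in that direction, but the members were chosen for this and nothing is read from it. Against the single sham miR-150 cKO array that shared row 1 with the controls, the differences were 0.75 for *Emr1*, 0.68 for *Lyz2* and 0.30 for *Cd14*. For *Cd14* that is less than in the whole comparison by more than the spread between replicates, and its replicates 2 and 3 of row 2 were the higher arrays.

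The effect of MI within a genotype shares the sham arrays that chose the genes, so it is also given as a description. In miR-150 fl/fl hearts MI minus sham was 0.47 (SE 0.21) for *Emr1*, 0.72 (SE 0.25) for *Lyz2* and 0.26 (SE 0.26) for *Cd14*. All sham arrays of this genotype lay in row 1 of scan 2 and none of its MI arrays did. MI and array position thus cannot be told apart here. *Lyz2* did not overlap between these groups, with MI higher, as for 3.82% of all probes, and *Emr1* and *Cd14* did overlap. With replicate 1 of sham miR-150 fl/fl, the low array, left out, the values were 0.27 for *Emr1*, 0.46 for *Lyz2* and 0.10 for *Cd14*. For *Cd14* they were also 0.12 without MI miR-150 fl/fl replicate 1 and 0.40 with replicate 3 of sham miR-150 fl/fl left out. With scan and row in the model *Lyz2* was at 0.45 and *Cd14* at -0.24. That model links the sham miR-150 fl/fl arrays to the others only through sham miR-150 cKO replicate 1, the single other array of their row. In miR-150 cKO hearts MI minus sham was -0.16 for *Emr1*, -0.32 for *Lyz2* and -0.18 for *Cd14*, with overlap for all 3, where 28.4% of all probes had none. All MI arrays of this genotype were in scan 1 and all its sham arrays in scan 2. MI and scan thus cannot be told apart here, also for that share. A fit with scan as a block separates them only through MI miR-150 fl/fl replicate 3. Leaving out each array gave -0.29 to 0.03 for *Emr1*, -0.43 to -0.12 for *Lyz2* and -0.37 to 0.09 for *Cd14*, in each case highest without MI miR-150 cKO replicate 1, and scan as a block gave 0.0043 for *Cd14*. The difference of the genotypes in their MI effect was -0.63 (SE 0.30) for *Emr1*, -1.04 (SE 0.36) for *Lyz2* and -0.44 (SE 0.36) for *Cd14*, which was -0.17 without MI miR-150 cKO replicate 1, -0.29 with replicate 1 of sham miR-150 fl/fl left out and 0.06 with scan and row in the model. The low sham miR-150 fl/fl arrays enter each of these values except those of the miR-150 cKO hearts.

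**Figure D2:**
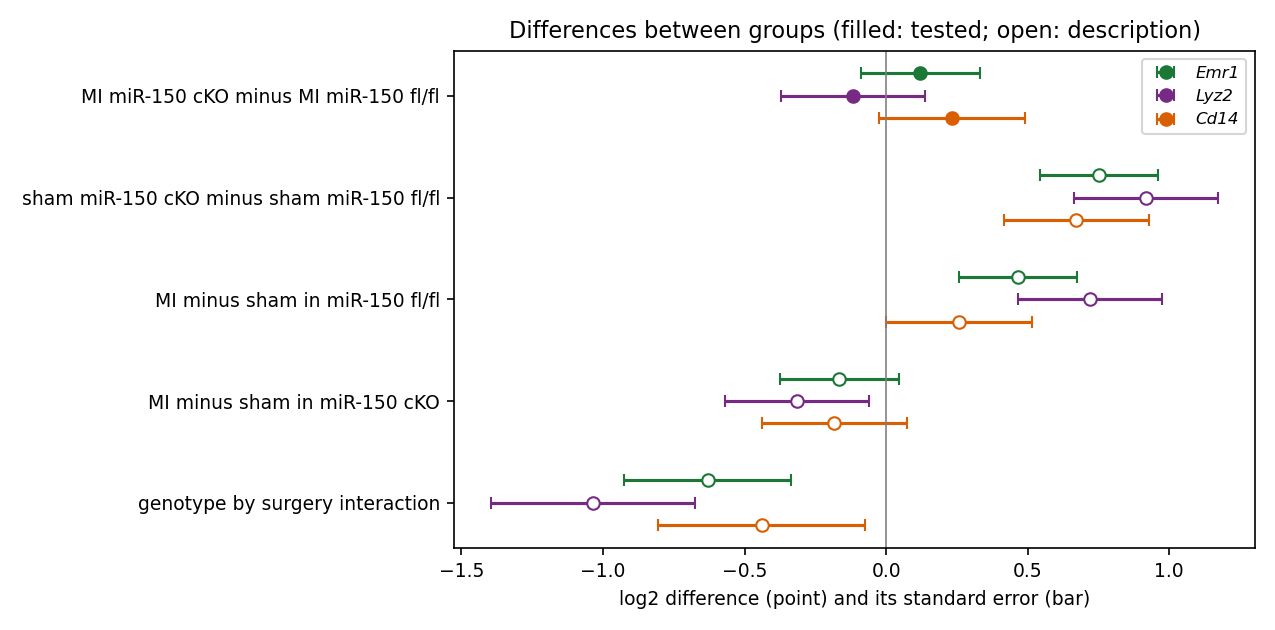
Log2 difference (horizontal axis) for each comparison of groups and gene, with bars of 1 standard error from the limma fit. Filled points mark the tested comparison after MI, which lies between -0.12 and 0.23, and open points mark the descriptive values, which lie between 0.67 and 0.92 in sham hearts.

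The 3 genes kept a like order of mice inside the groups. Sham miR-150 fl/fl replicate 1 and MI miR-150 cKO replicate 1 were the lowest arrays of their groups for all 3 genes. Sham miR-150 cKO replicate 2, MI miR-150 fl/fl replicate 1, MI miR-150 cKO replicate 3 and sham miR-150 fl/fl replicate 3 were the highest of their groups for all 3. Over all tested probes sham miR-150 fl/fl replicate 1 was the lowest of its group for 34.6%, and MI miR-150 cKO replicate 1 for 29.0%. The sham arrays named the genes, so their order is a description. The male of the group was the lowest array in sham miR-150 fl/fl and the highest in sham miR-150 cKO and also in MI miR-150 fl/fl for all 3 genes, and it was the middle array in MI miR-150 cKO. With 1 male per group no difference between the sexes was tested.

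Pearson's r over the 12 arrays was 0.93 between *Emr1* and *Lyz2*, 0.90 between *Emr1* and *Cd14* and 0.87 between *Lyz2* and *Cd14*. After the mean of each group was removed, r was 0.89, 0.85 and 0.88 in the same order. Among 53978 probes with a value on every array, *Lyz2* was number 5 and *Cd14* number 13 by r with *Emr1*, and 15 and 56 once group means were removed. Ranked from *Lyz2*, *Emr1* was number 13 and *Cd14* number 66, and ranked from *Cd14*, *Emr1* was number 22 and *Lyz2* number 49. With group means removed, these became 36 and 50 from *Lyz2* and 119 and 74 from *Cd14*. These are descriptions over arrays that share the group differences, the scaling and the 2 scans, and the genes were named through the same contrast.

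The 5 named probes with the highest r to each member were nearly all of myeloid genes. For *Emr1* they were *Clec4n* (Dectin-2, a lectin that recognises fungal sugars) with r of 0.95, *Ms4a7* with 0.94, *Fcrls* with 0.94, a second *Clec4n* probe with 0.93 and *Cd300a*, an inhibitory receptor of myeloid cells, with 0.92. For *Lyz2* they were *Ms4a7* at 0.96, *Cd300a* at 0.95, *Clec4n* at 0.91, *Cd72* at 0.90 and *Pilrb1* at 0.88. *Cd72* is known as a co-receptor of B cells and had been put on the B cell list. For *Cd14* they were *Clec4n* at 0.93, the costimulatory ligand gene *Cd86* at 0.92, *Slamf9* at 0.88, *Cd300a* at 0.85 and the second *Clec4n* probe at 0.84. The *Clec4n* probe that headed the list of *Emr1* ranked number 1 of all 53978 probes. The list of *Lyz2* began at number 3 and that of *Cd14* at number 7. The last of the 5 was number 9 for *Emr1*, 44 for *Lyz2* and 72 for *Cd14*. Probes without a name here were thus also among the most alike. All of the listed probes were named through the same sham comparison, *Cd72* also through MI against sham in miR-150 fl/fl, so likeness in the sham arrays was in part built in by the naming.

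Of 64 genes on 5 lists of myeloid genes, 20 had a name here, with 22 probes, and all 22 were tested. The lists are macrophage surface and lysosome (5 of 25 genes named), myeloid immune receptors (9 of 16), CD14 and Toll-like receptor sensing (3 of 8, *Cd14* being on both this and the first list), monocyte-attracting chemokines and growth factor (1 of 10) and cathepsins (3 of 6). Because names exist mostly for transcripts past the limits in some comparison, the named genes are no fair sample of the lists. The 22 probes divide by the comparison that named them into 15 from the sham genotype comparison and 7 from others.

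The 15 probes of the first kind, which stand for 14 genes, were not chosen by any MI array. In MI miR-150 cKO against MI miR-150 fl/fl, 0 of the 15 were past the limits, against 4.77% of all probes. By limma 0 of the 15 had an unadjusted p under 0.05, against 9111 of all 54232 tested probes. By the unpaired test it was also 0, against 9118 of 54229 probes. After adjustment 0 were called, against 0.00184% of all probes. The median log2 difference of the 15 was 0.01, with a range from -0.27 to 0.41, and 8 of 15 were above 0. The median over all tested probes was 0.00461. In the sham hearts, where they were chosen, their median was 0.80 and their range 0.44 to 1.16. The other 64 probes that got their names from the same sham comparison had a median of 0.28 after MI, and 15 of those 64 were past the limits, all higher in miR-150 cKO.

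Among the surface and lysosome genes, *Mpeg1*, which encodes a pore-forming protein of phagocytes, had a group mean of 0.90 for sham miR-150 fl/fl, of 2.07 for sham miR-150 cKO, of 1.91 for MI miR-150 fl/fl and of 2.17 for MI miR-150 cKO. Its difference after MI was 0.26 (SE 0.31, adjusted p 0.71 by limma). *Ms4a7*, a membrane protein gene of tissue macrophages, had means of -0.19, 0.74, 0.60 and 0.50 in the same order, and its difference after MI was -0.10 (SE 0.23, adjusted p 0.87). Neither passed the test after MI.

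Among the receptors, the *Clec4n* probes gave -0.02 (SE 0.14) and 0.27 (SE 0.23) after MI. *Cd300a* gave -0.03, *Cd86* -0.05, *Fcrls* 0.13, *Slamf9* 0.01, *Pilrb1* -0.27 and *Lair1*, an inhibitory collagen receptor, -0.13. The lowest adjusted p by limma among these receptors was 0.43, for *Pilrb1*, an activating receptor. *Lair1* was well above background on 6 of 12 arrays and is the least certain. *Tlr12*, a Toll-like receptor for parasite profilin, gave 0.41 (SE 0.27) and was well above background on 11 arrays. *Ccl12*, a chemokine that draws monocytes through CCR2, gave 0.08 (SE 0.25).

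The 7 probes named through other comparisons are given apart, and where the MI comparison named them their values are again a description. *Ctsl*, a lysosomal cysteine protease, was named as higher in MI miR-150 cKO than in MI miR-150 fl/fl and differed by 1.13 (SE 0.33). *Naip5*, a sensor of bacterial flagellin, was named as lower there and differed by -0.61 (SE 0.14). *Sirpa*, the receptor for the CD47 signal against engulfment, had 1 probe at -0.68 (SE 0.14) and another at 0.80 (SE 0.41), so its probes disagree. *Ctsk*, a collagen-degrading cathepsin, *Ctsz* and *Sirpb1b* were named through MI against sham in miR-150 fl/fl, and gave 0.15, 0.04 and 0.03 in the MI genotype comparison. *Sirpb1b* was well above background on 9 arrays.

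**Figure D3:**
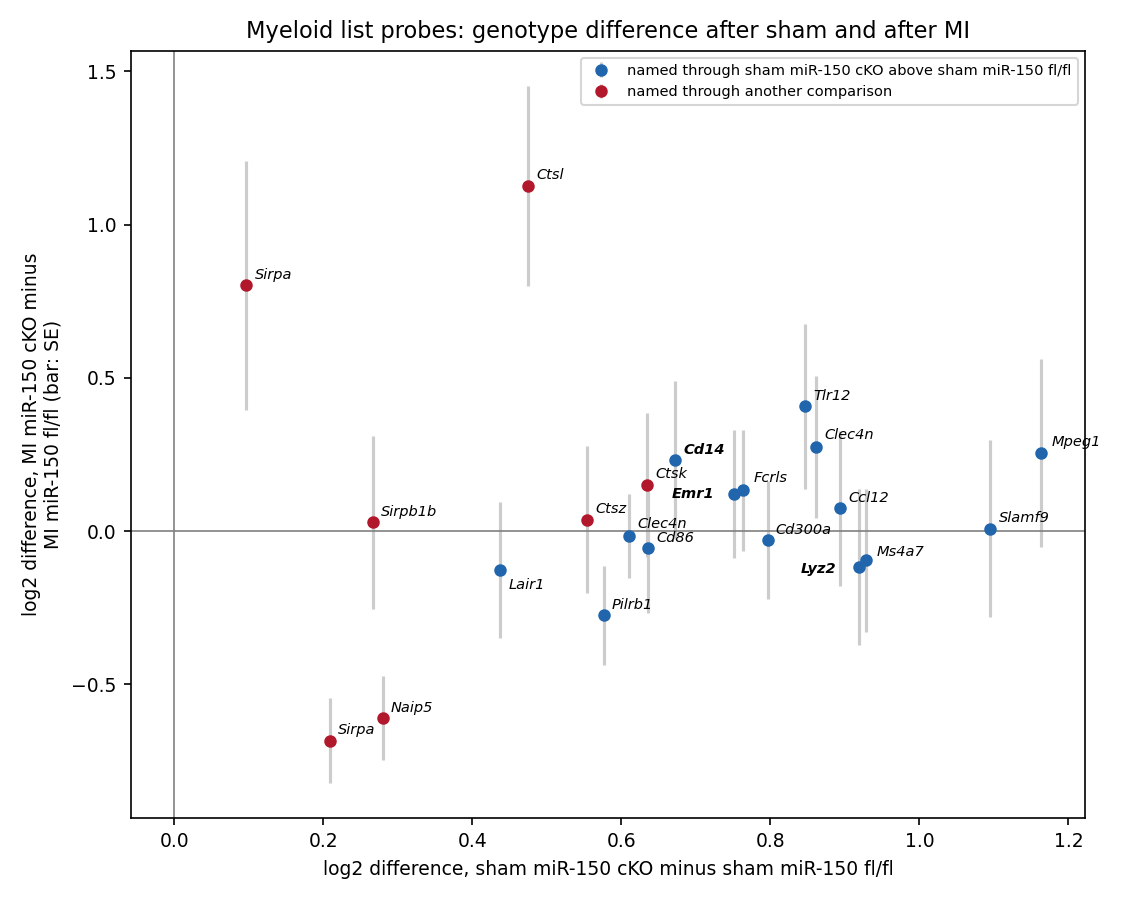
The log2 genotype difference in sham hearts (horizontal axis) against that after MI (vertical axis, bars of 1 SE) for the 22 myeloid probes, with *Emr1*, *Lyz2* and *Cd14* in bold. The 15 probes named through the sham comparison (blue) lie between -0.27 and 0.41 after MI, and the 7 others (red) reach from -0.68 to 1.13.

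Part of the mouse-to-mouse pattern of the 3 genes was present in the wider group of 15 probes, which includes the 3 genes themselves. MI miR-150 cKO replicate 1 was the lowest of its group for 14 of the 15 probes, *Tlr12* being the exception, where 29.0% of all probes were lowest on that array. Sham miR-150 fl/fl replicate 1 was the lowest for 13 of 15, against 34.6% of all probes, and replicate 3 the highest for 14 of 15, against 20.7%, but the probes were named for low values in these sham arrays and nothing is read from that order. The other positions were less uniform. MI miR-150 cKO replicate 3 was the highest for 8 of 15, against 34.6% of all probes, MI miR-150 fl/fl replicate 1 for 10 of 15, against 23.1%, and sham miR-150 cKO replicate 2, again an array that named them, for 10 of 15. Without MI miR-150 cKO replicate 1 the median difference of the 15 probes after MI was 0.18, with 14 of 15 above 0 and 0 past the limits, while the median of all probes was -0.01. With scan as a block, alone or with array row, the MI miR-150 cKO arrays are compared with MI miR-150 fl/fl replicate 3 alone. The median of the 15 was then 0.15, with 10 of 15 above 0. The median near 0 thus moved without MI miR-150 cKO replicate 1 and with scan in the model. Scan nearly coincides with genotype after MI.

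**Figure D4:**
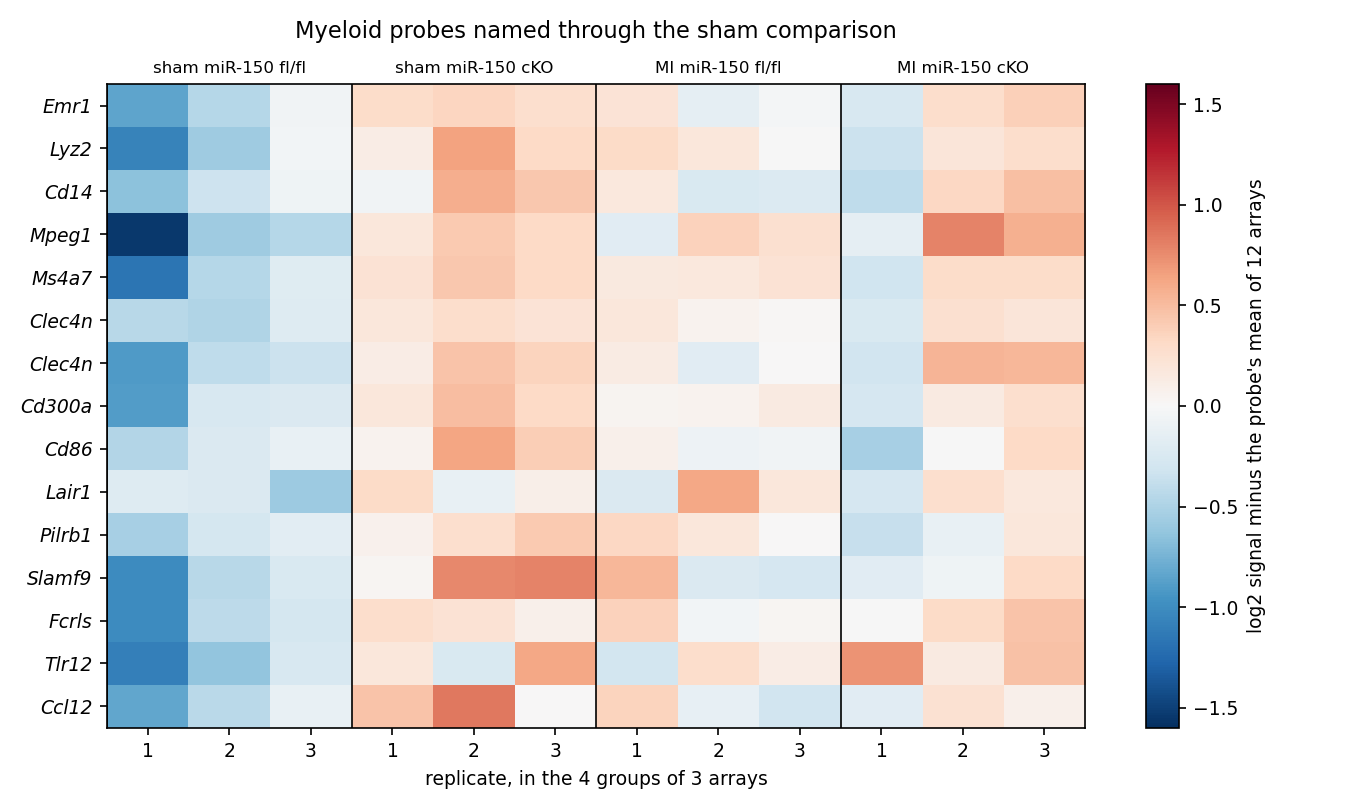
Log2 signal of each of the 15 myeloid probes named through the sham comparison, minus its mean of 12 arrays, on every array (columns, 3 replicates in each of 4 groups). The sham miR-150 fl/fl arrays are low in almost all probes, replicate 1 most of all, and MI miR-150 cKO replicate 1 is lower than the other arrays of its group in 14 of 15.

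Genes of other cell types were read for the same arrays as the sum of the signals of a list's named probes, in units of the 75th percentile of the array. Bright probes weigh most in such a sum, so it is no measure of the whole list. The macrophage surface and lysosome list summed to 16.8 to 32.1 in sham miR-150 fl/fl, 37.4 to 50.9 in sham miR-150 cKO, 34.2 to 40.0 in MI miR-150 fl/fl and 27.4 to 43.5 in MI miR-150 cKO, of which *Lyz2* made up the greater part. The fibroblast list (6 of 9 genes named) went the same way in sham hearts, at 16.3 to 34.2 in miR-150 fl/fl and 43.6 to 55.7 in miR-150 cKO, and read 63.8 to 69.7 and 50.8 to 87.0 after MI. The adipocyte list (4 of 6) summed to 5.49 to 9.97 and 10.2 to 15.9 in the sham groups, and the B cell list (3 of 5) to 1.24 to 1.36 and 1.63 to 1.84. The cardiomyocyte list (4 of 8) summed to 73.6 to 127 in sham miR-150 fl/fl and 115 to 281 in sham miR-150 cKO, a higher sum that comes from *Myh7* alone, at 2.26 on the log2 scale. The other cardiomyocyte probes were all lower in sham miR-150 cKO, the 2 *Tnnt2* probes at -0.34 and -0.29, *Nkx2-5* at -0.23 and *Tcap* at -0.31. The adipocyte sum is mostly *Scd1*, at 0.76, while *Plin4* went the other way, at -0.68, and had been named as lower in sham miR-150 cKO. Of the 6 fibroblast genes, 4 had been named through the sham genotype comparison, as had *Ms4a1* and *Cd72* of the B cell list. The part of these lists in the macrophage values was not tested.

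The lists of other leukocytes gave no common direction in the sham hearts. The T cell list (4 of 6 genes) summed to 15.8 to 18.7 in sham miR-150 fl/fl and 14.2 to 26.4 in sham miR-150 cKO, and the NK cell list (2 of 3) to 3.44 to 3.91 and 3.19 to 5.63. The only named neutrophil gene of 7, *Camp*, which encodes an antimicrobial granule peptide, read 0.439 to 0.740 in sham miR-150 fl/fl and 0.306 to 0.411 in sham miR-150 cKO, and so was lower where *Lyz2*, a gene of neutrophils too, was higher. The only named mast cell gene of 3, *Ms4a2*, read 0.342 to 0.499 and 0.428 to 0.457. After MI the T cell list read 12.0 to 24.4 in miR-150 fl/fl and 32.1 to 32.3 in miR-150 cKO, without overlap. *Cd4* and *Il2ra*, which make up most of that sum, had been named as higher in that same comparison, and *Camp* as lower in the sham one, so these separations were chosen and are a description. Of the other T cell probes, *Cd6* was at -0.76 on the log2 scale after MI, named as lower there, and *Foxp3* at 0.13. The myeloid immune receptor list also separated after MI, at 7.22 to 9.87 in miR-150 fl/fl and 10.7 to 12.3 in miR-150 cKO, and so did the cathepsin list, at 25.4 to 30.5 and 36.7 to 42.5, where the *Sirpa* probes and *Ctsl* had been named through the MI comparison. The NK cell, B cell, mast cell and cardiomyocyte sums did not overlap either. The NK cell sum was higher in miR-150 cKO, at 2.86 to 4.49 and 5.67 to 6.93. So was the cardiomyocyte sum, at 76.4 to 84.9 and 316 to 366. The B cell sum was lower, at 1.41 to 1.85 and 1.14 to 1.18. So was the mast cell sum, at 0.338 to 0.386 and 0.211 to 0.266. Except *Ms4a1* and *Cd72*, the probes of these lists had been named through this MI comparison, so the separations were chosen. In this comparison 28.4% of all probes did not overlap. Inside the NK cell list *Klrk1* was at -0.73 on the log2 scale after MI and *Klrb1a* at 0.88. Of the cardiomyocyte probes *Myh7* was at 3.27 and *Nkx2-5* at 0.82, while the 2 *Tnnt2* probes were at -0.55 each and *Tcap* at -0.77. The macrophage surface and lysosome list, none of whose named genes came from the MI comparison, overlapped.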

How the data were processed

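RNA of 12 left ventricles, 1 mouse per 1-colour Agilent array, was read by the authors with Feature Extraction 11.0.1.1. The deposited spot intensity is linear and background-subtracted, and a deposited table of log2 values, normalized between arrays by the authors, covers the same arrays. Its quartiles differ between arrays by at most 0.0012, and the method is not given in the sources used here. Of 62939 spots per array, 61104 were used, which hold 60819 probes. Over the 12 arrays 435 flagged spots (0.0593% of those used) were left out, and 0 were saturated. Arrays correlated at 0.969 to 0.991, and the number of arrays limits the precision.

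Intensities were taken to log2 minus the 75th percentile of each array, and 6587 probes that were well above background on fewer than 3 of the 12 arrays were dropped. limma 3.58.1 in R 4.3.3 fitted 4 group means (8 residual degrees of freedom, 10.4 with the prior). Fold and p of 963 entries were matched within a relative tolerance of 2e-05, and each matched exactly 1 probe. The fold and p columns of that gene table served as a name key only. The file headers give build mm9, which was not used for coordinates. Microarray scan and row were read from the file headers. Replicate numbers were checked for pairing and did not pair the arrays (18 pairs, correlation of deviations -0.27 to 0.27).

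The genes named are the 3 members, every named gene of 5 myeloid lists, and the 5 named probes most like each member by Pearson's r. Other cell types are given as ranges. The members and lists were chosen with earlier results of these data known. The method was tested on simulated data. Alternatives were 11 other settings besides leaving out each of the 12 arrays in turn, and values within a scan or row were added after seeing the data. Figures were drawn with matplotlib 3.10.9.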

Additional observations from a re-analysis of the deposited data

How the results depend on the processing

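The differences of *Emr1* and *Cd14* after MI kept their sign, and none of the 3 members reached an adjusted p of 0.05 under any alternative (lowest adjusted p 0.53 for *Emr1*, 0.44 for *Lyz2* and 0.37 for *Cd14*). Leaving out each array in turn gave 0.000535 to 0.32 for *Emr1*, -0.23 to 0.076 for *Lyz2* and 0.06 to 0.51 for *Cd14*, the other alternatives 0.03 to 0.17, -0.32 to 0.05 and 0.12 to 0.36. For *Lyz2* the sign turned to 0.048 with scan as a block, with scan and array row as a block and within scan 1, and to 0.076 without MI miR-150 cKO replicate 1. The settings with scan compare the MI miR-150 cKO arrays with MI miR-150 fl/fl replicate 3 alone. The replicate block left the members' values at 0.12, -0.12 and 0.23 and gave 2614 transcripts past the limits and 0 at an adjusted p under 0.05, and it changed no call of a member; the replicate numbers do not pair the arrays.

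The count past the limits after MI was 2585. It was 1688 with normexp background correction, 1720 with the unpaired 2-tailed test of the methods, 1387 with scan as a block and 1495 with scan and array row as a block. Leaving out each array gave 1469 (without MI miR-150 fl/fl replicate 2) to 3971 (without MI miR-150 fl/fl replicate 3). At an adjusted p under 0.05 there was 1. This count was 2 with quantile normalization, 2400 with normexp background correction, 295 with probes well above background on all 12 arrays, 0 with the unpaired test, 304 with sex as a covariate, 80 with scan as a block, 92 with scan and array row as a block, 5 with the compared groups alone, and 0 to 99 when each array was left out, 99 without sham miR-150 fl/fl replicate 1. Of the 22 myeloid probes, 3 were past the limits, against 4.77% of all probes. These 3, of *Ctsl*, *Naip5* and *Sirpa*, had been named through this same comparison, so nothing is read from their count. It was 1 with scan as a block or scan and array row as a block, and 2 to 4 when each array was left out. The causes were not tested.

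Of the MI effects in miR-150 cKO hearts, those of *Emr1* and *Cd14* turned sign without MI miR-150 cKO replicate 1, to 0.03 and 0.09. Of the descriptive values, 4 moved by more than the spread between replicates, all with scan and array row as a block: *Cd14* in sham hearts to 0.30 (0.30 also within scan 2, row 1), its MI effect in miR-150 fl/fl to -0.24, its interaction to 0.06 and that of *Lyz2* to -0.63.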
